A study of Mus musculus with 4 samples.

Results

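Ribosomal protein pseudogenes are described here against the genes they were copied from, in the transcriptome of mouse granulosa cells (GCs). A pseudogene was taken as a member when its row of the deposited count table carried a mouse symbol that begins with Rpl or Rps and ends in -ps, with or without a number, and when its counts over the 4 libraries summed to at least 1. Members were thus selected on their summed count, so that their presence among detected genes is no result. The rule gave 190 members out of 300 such rows and out of 55385 genes in the table. The remaining 110 rows were at 0 in all 4 libraries. The parent of each member was the gene whose symbol stands before -ps, and the members had 55 parents between them. At the edge of the rule, 2 members had a sum of 2 counts and 2 had a sum of 3 (Rpl7a-ps14, Rps4l-ps, Rps19-ps8 and Rps15a-ps2), while the rows just outside had none.

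The RNA came from GCs, somatic cells of the follicle that feed and enclose the oocyte, of preantral follicles from Kunming females 12 to 14 days old, after 6 days of culture. Follicles of the NT4 group (2 libraries) were grown with neurotrophin-4 (NT-4) in the medium, and those of the Control group (2 libraries) without it. Both groups shared the same base medium with follicle-stimulating hormone, and by a figure legend of the study the 2 samples of a group came from independent experiments. The study set the groups against each other to learn what NT-4 changes in GCs. The question asked here was how the counts of a pseudogene relate to those of its parent in the same 4 libraries.

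Ribosomal proteins build the large subunit (genes named Rpl) and the small subunit (genes named Rps and Rpsa) of the cytosolic ribosome, and their mRNAs are among the most abundant of any cell. Copies of these mRNAs have been reverse transcribed and inserted into the genome many times. Such processed pseudogenes have no introns and usually no promoter of their own, and young copies differ from the parent's mRNA at few bases. A short read from the parent can then fit the copy as well, or fit it better where a spliced read is hard to place. The reference mouse genome is that of C57BL/6J, so a base at which Kunming mice differ from it is not seen in the sequences printed here.

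The libraries held between 49520092 and 78704020 counts. Levels are given as CPM, the count per 1e6 counts of the library's total. Counts from 1 to 12 lay at 4, 8 or 12 in 45.4% to 46.2% of genes by library, which points to about 4 counts for each read pair. A gene listed at 0 could thus lie anywhere up to 12 counts, or 3 read pairs, which is 0.152 to 0.242 CPM by library. The members' own low values lay at 4, 8 or 12 in 34 of 90 cases. The 10 GC markers checked (Foxl2, Amh, Fshr and others) summed to 11250 to 15778 CPM by library. The summed levels of other cell types were 67.2 to 94.7 CPM for 8 oocyte markers, 401 to 613 CPM for 6 theca and stroma markers and at most 27.6 CPM for each of the lists of endothelium, erythroid cells and macrophages, and no marker of any list was at 0 in all 4 libraries.

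Sequences are shown for 4 of the families named below. They are coding stretches of the transcripts of GENCODE release M21 on GRCm38, written 5′ to 3′ in lower case with the bases that differ within a family in capitals. Positions are counted from 1 at the A of the parent's start codon, and a change is written with the parent's base first. The first pair is Rpl34 (chromosome 3) and Rpl34-ps1, the member with the highest level. The stretch shown holds both of its differences from Rpl34, T132C and C318G, and lies at chr6:71124725-71124944 (+ strand) in the pseudogene.
Rpl34: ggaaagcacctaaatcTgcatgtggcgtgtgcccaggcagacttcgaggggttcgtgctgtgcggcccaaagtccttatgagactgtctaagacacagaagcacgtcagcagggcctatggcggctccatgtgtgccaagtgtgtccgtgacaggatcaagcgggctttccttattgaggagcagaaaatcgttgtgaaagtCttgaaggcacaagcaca
Rpl34-ps1: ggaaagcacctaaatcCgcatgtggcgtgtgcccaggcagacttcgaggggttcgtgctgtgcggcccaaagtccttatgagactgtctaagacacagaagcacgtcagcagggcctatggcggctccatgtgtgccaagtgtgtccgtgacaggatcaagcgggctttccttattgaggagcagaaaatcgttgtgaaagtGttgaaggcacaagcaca

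The transcript models of 4 copies of Rpl35a (Rpl35a-ps2, Rpl35a-ps3, Rpl35a-ps4 and Rpl35a-ps6) are the same sequence, and each differs from Rpl35a by G156A alone. The stretch around that base is shown for the parent and for 2 of the copies, Rpl35a-ps6 at chr5:123255594-123255693 and Rpl35a-ps2 at chr1:181242101-181242200 (both - strand). No base distinguishes the 2 copies, so no read that lies within them can either.
Rpl35a: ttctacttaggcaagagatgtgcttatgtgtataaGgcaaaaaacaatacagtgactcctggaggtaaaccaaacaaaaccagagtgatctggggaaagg
Rpl35a-ps6: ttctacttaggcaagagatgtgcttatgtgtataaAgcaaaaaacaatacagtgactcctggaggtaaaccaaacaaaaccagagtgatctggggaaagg
Rpl35a-ps2: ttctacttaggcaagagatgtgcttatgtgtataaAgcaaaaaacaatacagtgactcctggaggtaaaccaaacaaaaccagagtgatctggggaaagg

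Rpl5-ps1, the member with the largest difference between the groups, has 10 differences from Rpl5 over its 894 bases. The 6 in the stretch shown (chr1:14865592-14865781, + strand) are C531T, A566T, G606A, C625T, C690T and T704A.
Rpl5: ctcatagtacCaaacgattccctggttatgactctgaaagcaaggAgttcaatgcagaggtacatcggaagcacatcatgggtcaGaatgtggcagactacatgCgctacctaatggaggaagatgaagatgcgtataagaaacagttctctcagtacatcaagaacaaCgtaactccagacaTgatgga
Rpl5-ps1: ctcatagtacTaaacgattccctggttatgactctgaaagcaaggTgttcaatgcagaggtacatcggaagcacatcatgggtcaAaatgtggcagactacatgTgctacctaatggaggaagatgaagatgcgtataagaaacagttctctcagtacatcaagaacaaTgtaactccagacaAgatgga

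Rpl36a-ps3 goes against its name. It has 40 differences from Rpl36a over 321 bases, an identity of 87.5%, but only 1 difference from Rpl36al, another gene for the same ribosomal protein, an identity of 99.7%. By the symbol rule its parent stays Rpl36a, and the start of both (bases 1 to 120, chr6:136488807-136488926, + strand, in the pseudogene) is shown because 18 of the 40 differences fall there.
Rpl36a: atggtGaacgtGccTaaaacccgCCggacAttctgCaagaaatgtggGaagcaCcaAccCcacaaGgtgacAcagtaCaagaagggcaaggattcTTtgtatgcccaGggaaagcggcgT
Rpl36a-ps3: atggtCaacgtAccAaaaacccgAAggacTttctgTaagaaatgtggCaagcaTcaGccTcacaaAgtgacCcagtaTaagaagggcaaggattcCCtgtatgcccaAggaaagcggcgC

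Of the 190 members, 179 are annotated as processed pseudogenes, 7 as transcribed processed pseudogenes and 4 as protein coding (Rps12-ps3, Rpl9-ps6, Rpl10-ps3 and Rpl36a-ps1). By position, 123 were intergenic and 59 lay in an intron of another gene, while 5 overlapped an exon of another gene on the same strand and 3 on the opposite strand. A count was present in all 4 libraries for 160 members, and 21 had a sum of no more than 12 counts over the 4. The mean level reached 1 CPM in 126 members, 10 CPM in 69 and 100 CPM in 20.

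Together the members took 0.720% to 0.802% of all counts by library, and their parents 3.86% to 4.43%. Of the counts on members and parents together, 16.2% and 15.4% lay on the pseudogenes in Control 1 and Control 2, and 15.1% and 15.3% in NT4 1 and NT4 2. The group means were 15.8% ± 0.58 in Control and 15.2% ± 0.14 in NT4 (SD, n = 2), and both NT4 libraries lay below both Control libraries. The difference of -0.54 percentage points gave an exact two-sided permutation p of 0.333, the smallest that 2 libraries against 2 allow. Its size rested on the Control libraries: it was -0.13 percentage points without Control 1 and -0.95 without Control 2.

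For the comparison of members with their parents that follows, the level was taken per kilobase (kb) of transcript, CPM divided by transcript length. Shares of counts and levels in CPM are not divided by length. Among the 184 members outside the Rps15a family, left out because the parent's transcript model has 5130 bases, the median ratio of member to parent was 0.0096, with 93 members below 0.01 and 40 above 0.1. In 6 members the pseudogene lay above its parent: Rpl34-ps1, Rps26-ps1, Rpl7a-ps11, Rpl21-ps15, Rps10-ps2 and Rpl35a-ps6. In mean CPM, not divided by length, the first 5 of these lay above their parent and Rpl35a-ps6 did not. A ratio per kb depends on the parent's transcript model, which for Rpl21 has 899 bases against 483 in Rpl21-ps15.

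Likeness to the parent went with the level. Each member was aligned to its parent's transcript, and the median level was 146 CPM per kb for 14 members with identity of 100%, 88.0 for 44 members from 99% to under 100%, 8.51 for 62 members from 97% to under 99%, 1.94 for 32 members from 95% to under 97% and 0.129 for 38 members under 95%. Rpl18-ps1 and Rps7-ps2, both in the last class, aligned to their parents over 16 and 15 bases only and in reverse complement, so their identities measure no likeness. Spearman's rho across the 190 members was 0.82, and 0.82 over the 184 aligned over 90% or more of their length, a description of genes that share 55 parents, 4 libraries and the same mapping. In the 12 families with at least 6 members, rho was above 0 in 11, with a median of 0.79, and the exception was Rpl30 at -0.09. The parent's own CPM did not order the members in this way, with a rho of -0.06 against CPM per kb.

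**Figure D1:**
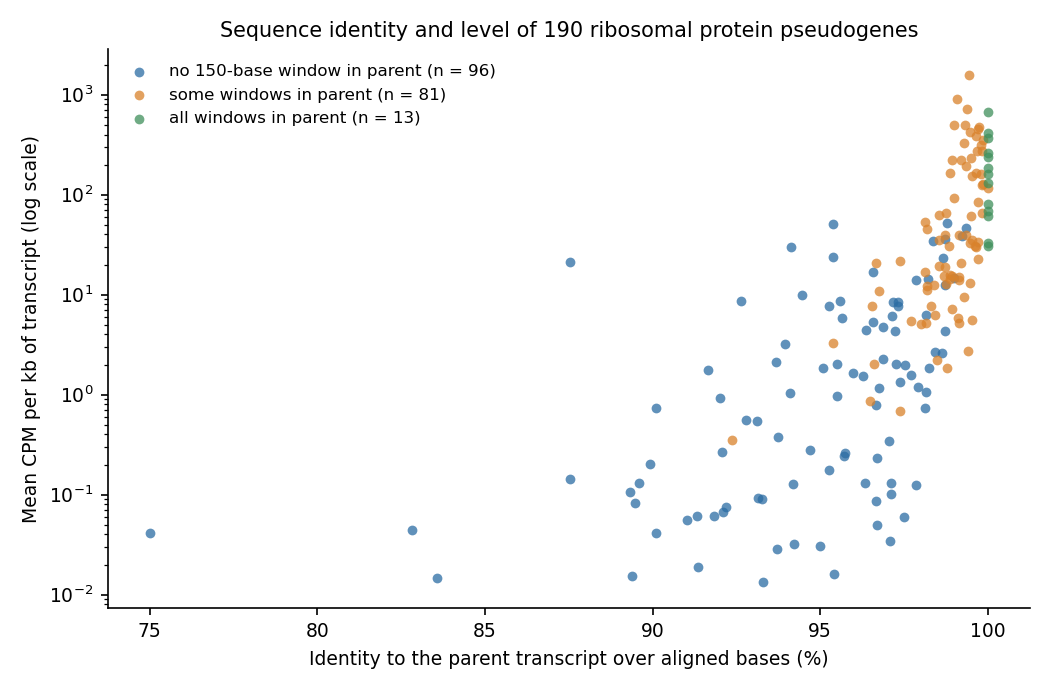
Identity of each of the 190 members to its parent's transcript (x axis, percent) against its mean level over the 4 libraries (y axis, CPM per kb of transcript, log scale). Identity is the percent of aligned bases plus gap bases that match. Points are coloured by whether none (n = 96), some (n = 81) or all (n = 13) of the member's 150-base windows occur exactly in the parent, and the median level goes from 8.51 CPM per kb between 97% and 99% to 146 CPM per kb at 100%.

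Reads of the study were 150 bases long, so each member's transcript was also cut into all windows of 150 bases. In 13 members every window occurred exactly in the parent's transcript, in 81 some did and in 96 none did. Taken from all to none, the medians were 159.9 CPM per kb (30.5 to 664), 30.9 CPM per kb (0.348 to 1588) and 1.05 CPM per kb (0.0132 to 52.5). The members with no window in the parent held 3.28% of the members' counts, those with some 80.3% and those with all 16.4%. In 80 of the 96 every window was found in no other gene, and 16 shared a window with a gene other than the parent. At the other end, 21 members had no window that was theirs alone.

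Length of the reading frame and position were recorded as features that the rule did not use. A frame from ATG at least as long as the parent's coding sequence was open in 105 members, with a median of 15.6 CPM per kb and 86.6% of the members' counts, and the 84 with a shorter frame had a median of 2.20 (Rps4l-ps was in neither class, since its parent's transcript has no coding sequence). The first group also had the higher median identity to the parent, 98.9% against 96.0%. Members in an intron of another gene had a median of 20.9 CPM per kb (n = 59) and intergenic members 5.62 (n = 123), with median identities of 98.7% and 97.5%. The part of identity in these differences was not tested.

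The highest member was Rpl34-ps1 (ENSMUSG00000068396, chromosome 6, 71124610 to 71124963, intergenic), a copy of the gene for large-subunit protein L34. It was at 504 and 527 CPM in Control 1 and Control 2 and at 530.3 and 686 CPM in NT4 1 and NT4 2. Rpl34 itself (ENSMUSG00000062006) was at 74.0, 69.8, 74.6 and 83.3 CPM in the same order. The pseudogene thus held 87.2% to 89.2% of the counts of both in every library, and per kb it lay 10.1 times above the parent (1588 against 157 CPM per kb). Of its windows, 17.6% occur in Rpl34, 42.0% occur in other genes but not in Rpl34, and 40.5% are found in no other gene. The other genes that share windows with it are Gm10154, Gm4705 and Rpl34-ps2.

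Rpl21-ps15 (ENSMUSG00000083596, chromosome X, 151215167 to 151215649, in an intron of Wnk3 on the opposite strand) was at 299, 352, 388 and 366 CPM from Control 1 to NT4 2. Rpl21, which encodes large-subunit protein L21, was at 64.9, 91.4, 102 and 48.3 CPM, and per kb the pseudogene lay 8.53 times above it. Its differences from Rpl21 are T336C, G378A and T432C. Rps26-ps1 (ENSMUSG00000059775, chromosome 8, 107439131 to 107439579, in an intron of Wwp2 on the opposite strand) was at 375, 392, 389 and 475 CPM, and Rps26, for small-subunit protein S26, at 353, 295, 389.5 and 323 CPM. Rpl7a-ps11 (ENSMUSG00000067147, chromosome X, 166854211 to 166855011, intergenic) was at 361, 391, 359 and 428 CPM, and Rpl7a, for large-subunit protein L7a, at 339, 286, 320.2 and 358 CPM. For Rps26-ps1 and Rpl7a-ps11 the pseudogene held 54.5% and 54.2% of the counts of the pair on average.

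**Figure D2:**
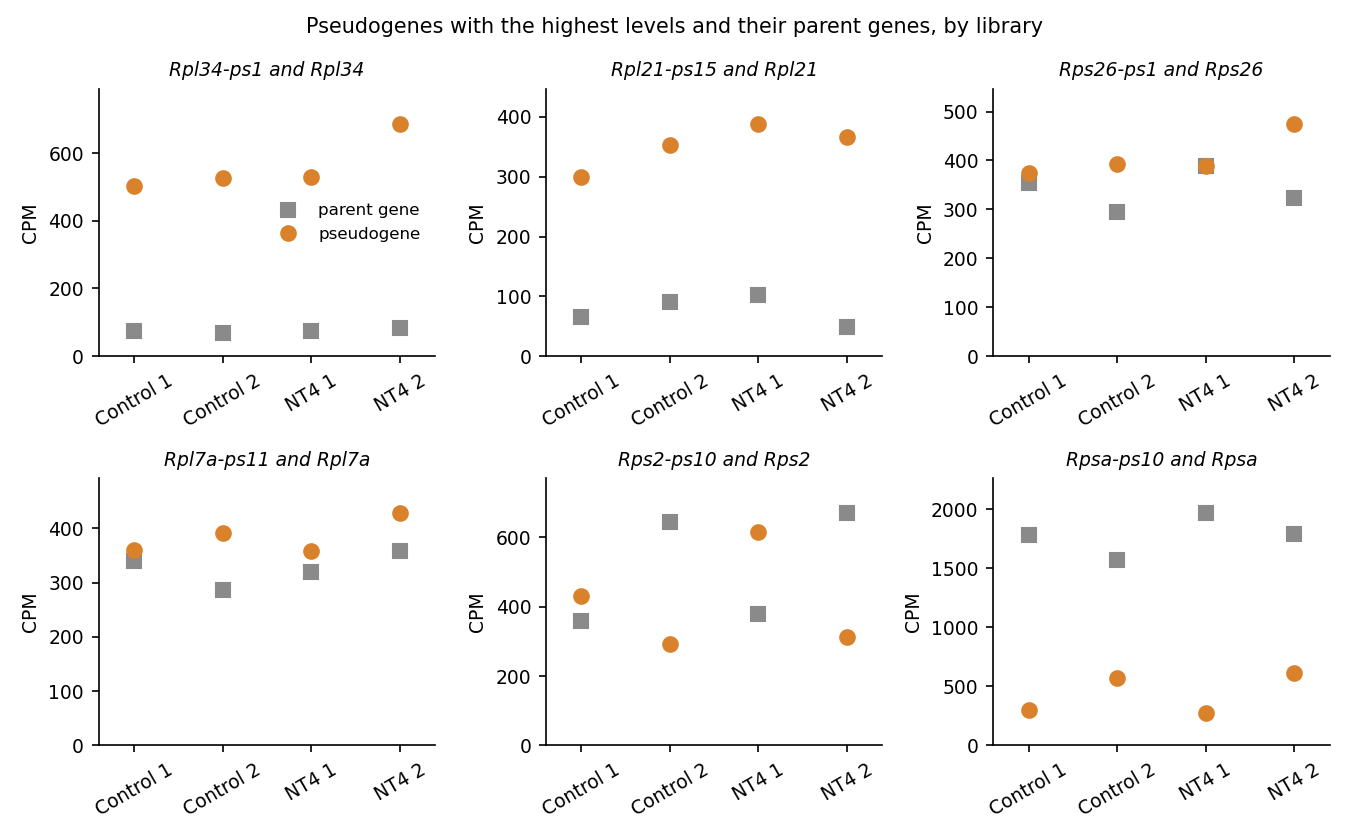
Levels in CPM (y axes, from 0, not divided by length) of 6 pseudogenes and their parents in each of the 4 libraries (x axes); circles are pseudogenes and squares parents, 1 value per library. In CPM, Rpl34-ps1, Rpl21-ps15 and Rpl7a-ps11 lie above their parents in all 4 libraries, and Rps2-ps10 and Rps2 change places between libraries.

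In some families the parent was low in the libraries where a copy was high, and their sum varied less than either. Rps2, for small-subunit protein S2, was at 359, 645, 379.8 and 669 CPM from Control 1 to NT4 2. Rps2-ps10 (ENSMUSG00000091957, a transcribed processed pseudogene) was at 429.8, 291, 615 and 313 CPM. In both groups the library numbered 1 was thus low for the gene and high for the copy, and the library numbered 2 the reverse. The highest level of Rps2 was 1.86 times its lowest, and that of Rps2 with its 9 pseudogenes summed was 1.16 times. For Rpsa, which encodes small-subunit protein SA, the levels also went with the replicate number, but the other way round. In both groups the library numbered 1 was high for the gene and low for the copy. Rpsa-ps10 (ENSMUSG00000047676, chromosome 3, 150072658 to 150073542, intergenic) was at 303, 571, 275 and 611 CPM, and Rpsa at 1784, 1573, 1969 and 1793 CPM. The members of Rpsa summed varied 1.76-fold and the whole family 1.13-fold.

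In the Rpl10 family, copies of the gene for large-subunit protein L10, the 2 copies given here varied more than the pseudogenes summed. Rpl10-ps1 (ENSMUSG00000080859, chromosome 2, 105554201 to 105554845), identical to Rpl10 over its length, was at 67.9 CPM in Control 1 and at 5.32, 5.70 and 5.84 CPM in the other 3 libraries. Rpl10-ps3, with 0 mismatches over 740 aligned bases, was at 94.3 and 85.7 CPM in the Control libraries and at 13.3 CPM in NT4 1 and 166 CPM in NT4 2. Their 5-member sum was nevertheless 440.2, 443, 431 and 469 CPM, a range of 1.09-fold, and Rpl10 varied 1.12-fold.

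The 4 copies of Rpl35a with 1 and the same sequence had different levels. Rpl35a, for large-subunit protein L35a, was at 185, 201, 137 and 254 CPM. Rpl35a-ps6 was at 134, 106, 184 and 179 CPM, and Rpl35a-ps4 at 7.84, 6.69, 7.31 and 8.25 CPM. Rpl35a-ps2 was at 13.4 CPM in Control 1, 69.4 CPM in Control 2 and 15.4 and 14.1 CPM in NT4 1 and NT4 2, while Rpl35a-ps3 was highest in Control 1, at 23.7 CPM against 6.58, 7.89 and 6.43 CPM. The family's 6 pseudogenes summed to 181, 189.8, 218 and 209 CPM, which is 1.20-fold from lowest to highest, while Rpl35a alone varied 1.86-fold and the whole family 1.31-fold.

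**Figure D3:**
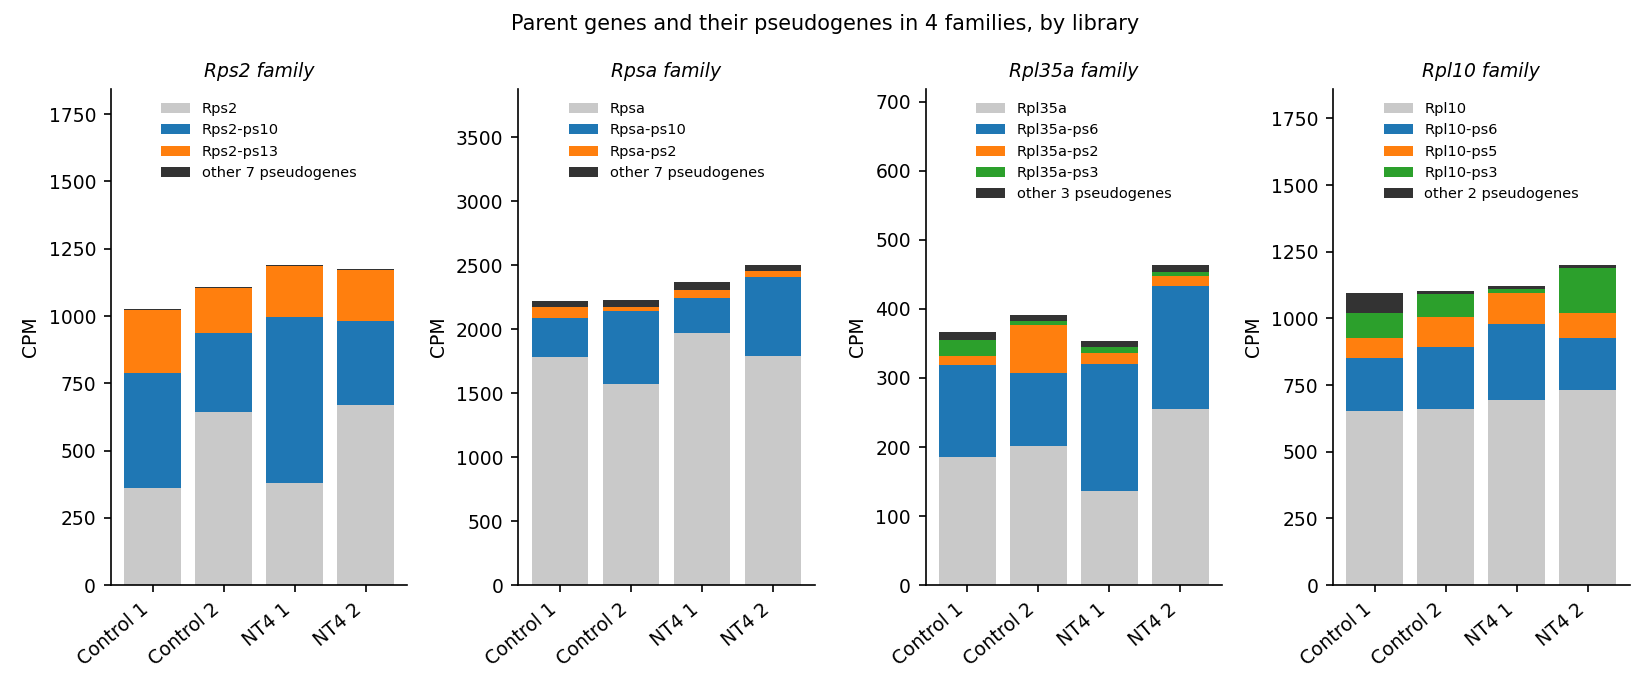
Stacked CPM (y axes, from 0) of the parent gene (light grey) and its pseudogenes (colours; those of low level pooled in dark grey) in the 4 libraries for the Rps2, Rpsa, Rpl35a and Rpl10 families. The levels of the parts shift between libraries, while the height stays within 1.16-fold for Rps2, 1.10-fold for Rpl10 and 1.31-fold for Rpl35a. These families were chosen after their values were seen.

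Over all 55 families, 17 had 1 member, 13 had 2 and 25 had at least 3, up to 14 for Rpl31. As a mean over the 4 libraries, the pseudogenes held over 50% of the family's counts in 9 families, over 10% in 22 and under 1% in 14, with a median of 5.93%. Of the 9, Rpl34, Rpl21, Rpl7a and Rps10 were over 50% in each of the 4 libraries. Rpl17, Rps26 and Rps12 were under it in 1 library each and Rps2 in 2, and Rpl35a was over it in NT4 1 alone, at 61.4% against 49.5%, 48.5% and 45.1% in Control 1, Control 2 and NT4 2. Rpl17 with its 7 members had 75.3% of the counts on the pseudogenes in Control 1 and 49.4%, 52.3% and 60.8% in Control 2, NT4 1 and NT4 2. From lowest to highest library the parent varied 1.20-fold, the members' sum 1.35-fold and the whole family 1.16-fold at the median. The whole family varied less than the parent alone in 43 of 55 families, and in 15 of the 22 with over 10% on pseudogenes. The 55 include the 14 families with under 1% on pseudogenes, where the whole family is nearly the parent alone. The part of families that varied less was smaller among the 22 than among the 55. A family here holds only copies named with -ps. Copies with other names, such as the Gm genes that share windows with Rps2-ps10, are outside these sums. In 58 members, some windows occur in another gene but not in the parent.

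Copies also differed more between replicates than their more abundant parents did, and the part of the level in this was not tested. Among the 126 members with a mean of at least 1 CPM, the median difference between the replicates of a group on the log2(CPM + 0.5) scale was 0.23 in Control and 0.28 in NT4. It was 0.09 and 0.15 for the 55 parents, 0.24 and 0.26 for 123 other pseudogenes named after a parent, and 0.17 and 0.23 for 14342 genes at that level. In 4 of the 126 members, 1 library lay at least 3-fold above the next, which is 3.17% against a background of 0.425% of all genes at that level. They were Rpl10-ps1 and Rpl30-ps8 (both Control 1), Rpl35a-ps2 (Control 2) and Rpl36a-ps3 (NT4 1). In 1 member, Rpl10-ps3, a library lay at least 3-fold below the next, against a background of 0.837%. None of the parents and none of the other pseudogenes stood apart in either way. This fold was chosen with the values known, and the counts are a description.

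NT4 was then compared with Control by edgeR's quasi-likelihood test across 19259 genes. Of the 190 members, 154 passed the filter on low counts, and those left out had mean levels of at most 0.114 CPM. No member passed an adjusted p of 0.05 (0 of 154, against a background of 0% of all genes tested), and 4 had an unadjusted p under 0.05, where 1.99% of all genes did. The DESeq2 Wald test called 1 member among 65 genes of 19259, edgeR's exact test 1 member among 59 genes, and limma voom 0 members among 0 genes. The study's criterion asks for more than a 2-fold change either way and for an edgeR p below 0.05, and was read here with the p unadjusted, which the study's methods do not say outright. It was met by 0 members that were higher in NT4 (background 0.478%) and by 2 that were lower (background 0.602%), Rpl5-ps1 and Rpl30-ps10.

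With all 4 libraries kept, most parents had a log2 fold change above 0 and most copies one below 0, and without Control 1 the copies' median was no longer below 0 (0.012). Of the 154 members 57 had a log2 fold change above 0, where 51% of all genes did, and 97 below, with a median of -0.11. Of the 55 parents 52 were above 0, with a median of 0.14, and 0 were called. Without NT4 2 the parents' median was 0.064, with 46 of 55 above 0. The summed level of the 6 theca and stroma markers was also higher in both NT4 libraries: it came to 401 and 471 CPM in Control 1 and Control 2 and to 613 and 536 CPM in NT4 1 and NT4 2, and all 6 had a log2 fold change above 0 (0.28 to 0.58), with 0 called. Their part in the result was not tested. The median over all genes tested was 0.0045. Both NT4 libraries lay above both Control libraries in 14 members (background 11.9%) and in 29 of 55 parents, and below them in 35 members (background 14.6%) and in 0 parents. In either direction the groups were apart in 31.8% of the members tested and in 26.6% of all genes tested. Since bulk RNA was measured, fewer cells with a transcript and less of it per cell cannot be told apart. The whole list of 79 cytosolic ribosomal protein genes holds every parent but Rps4l, so it is no separate result. It had a median of 0.14, with 76 above 0, 47 with both NT4 libraries above both Control libraries and 0 called by the same test.

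Within the 154 pairs the member's log2 fold change was below its parent's in 114 and shared its direction in 58, and the median difference was -0.27. That difference was -0.14 without Control 1. The classes by shared windows had different medians. It was 0.08 for the 13 with all windows in the parent (11 above 0), -0.06 for the 81 with some (36 above 0) and -0.18 for the 60 tested with none (10 above 0). With no filter on low counts, all 96 of the last class entered, and 29 were above 0 with a median of -0.14. Among the 60 tested the highest of the 4 values was that of Control 1 in 30 members and Control 2 in 20, NT4 1 in 7 and NT4 2 in 3 (50%, 33.3%, 11.7% and 5%). Over all genes tested the shares were 26.3%, 21.6%, 27.1% and 25.0% in that order, and over the other pseudogenes 29.3%, 19.9%, 25.1% and 25.7%. By contrast, NT4 2 was highest in 39 of the 55 parents. The 8 oocyte markers were all highest in Control 1, with sums of 94.7, 67.2, 78.2 and 77.2 CPM from Control 1 to NT4 2, and their part in the result was not tested. Without Control 1 the median over all members was 0.012, and that of the class with some windows turned to 0.05 (48 of 81 above 0). The class with no window still had a median of -0.16 (23 of 66 above 0) and the parents were above 0 in 48 of 55. Without NT4 2 the class with all windows had 5 of 13 above 0 and a median of -0.05. Its median was 0.32 without NT4 1 (11 of 13 above 0). Scaled by library totals with all libraries kept, it was 0.06 (8 of 13 above 0). The 191 other pseudogenes tested had 96 above 0 and 95 below, with a median of 0.0022. These medians and counts were not tested, and Control 1 was the library with the fewest counts, 49520092.

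**Figure D4:**
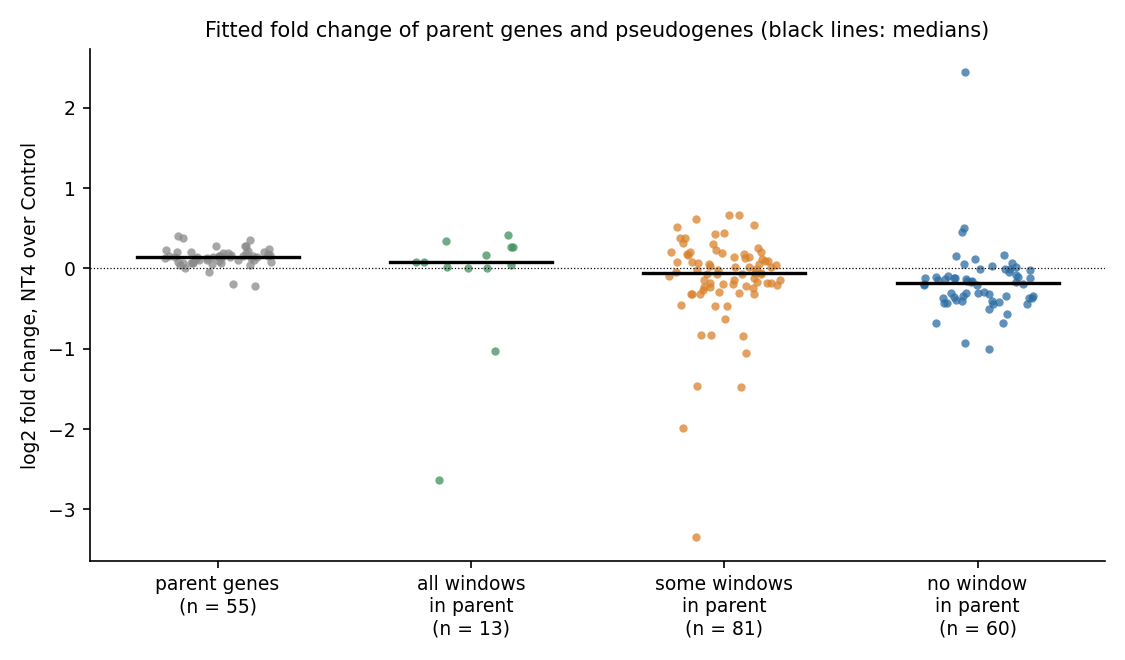
Fitted log2 fold change of NT4 over Control (y axis) for 55 parents and for the 154 members tested, split by whether all (n = 13), some (n = 81) or none (n = 60) of their 150-base windows occur in the parent (x axis). Each point is 1 gene, spread sideways at random, and black lines are medians, at 0.14, 0.08, -0.06 and -0.18 from left to right.

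Rpl5-ps1 (ENSMUSG00000082193, chromosome 1, 14865072 to 14865965, intergenic) had the largest difference. It was at 29.7 and 21.3 CPM in Control 1 and Control 2 and at 2.29 and 2.62 CPM in NT4 1 and NT4 2, so that the groups did not overlap. Control averaged 25.5 ± 5.98 CPM and NT4 averaged 2.45 ± 0.23 CPM (SD, 2 libraries each). The log2 fold change of -3.35 (SE 0.24) missed the threshold in edgeR's quasi-likelihood test, where the adjusted p was 0.130. That p ran from 5.58e-29 to 0.341 over 14 alternatives and was under 0.05 in 5 of them. Rpl5, for large-subunit protein L5, was at 1274, 1250, 1365 and 1384 CPM, which is a log2 fold change of 0.14 (SE 0.10). Of the windows of Rpl5-ps1, 42.8% occur in Rpl5 and 57.2% are its own. A second copy, Rpl5-ps2, was at 12.3, 11.9, 10.2 and 11.8 CPM.

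Rpl30-ps10 (ENSMUSG00000083411, chromosome X, 71803688 to 71804034, intergenic) was at 25.9 and 14.96 CPM in the Control libraries and at 9.66 and 4.94 CPM in the NT4 libraries. The groups did not overlap, and edgeR's test gave a log2 fold change of -1.47 (SE 0.41), for which the adjusted p was 0.9999. Rpl30, for large-subunit protein L30, was at 513, 515, 574 and 593 CPM, higher in both NT4 libraries. All 6 copies of Rpl30, Rpl30-ps10 among them, had a log2 fold change below 0, though that of Rpl30-ps8 was 0.0059 without Control 1. From Control 1 to NT4 2 the copies summed to 45.0, 26.9, 22.5 and 13.4 CPM. That is 8.05%, 4.97%, 3.77% and 2.22% of the family's counts in the same order. The sum includes Rpl30-ps10, which was named for its difference, so it is no separate result. In the sum of the other copies, Control 2 lay below NT4 1. Leaving out a library moved the value of Rpl30-ps10 between -2.01 and -1.03.

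The other 2 members with an unadjusted p under 0.05 lay outside the naming rule and were chosen after their values were seen. Rpl35a-ps6 was higher in both NT4 libraries, with a log2 fold change of 0.62 (SE 0.15). Its identical copies Rpl35a-ps2 and Rpl35a-ps3 were at -1.48 (SE 0.72) and -1.05 (SE 0.58). Rpl35a-ps2 was highest in Control 2 and Rpl35a-ps3 in Control 1, each far above the remaining libraries. Rpl35a-ps4, also identical, differed little between libraries and was highest in NT4 2. The family summed with Rpl35a was at 0.13 (SE 0.17). Rpl23a-ps3, which has 1 mismatch to Rpl23a, the gene for large-subunit protein L23a, was at 124, 115, 186 and 158 CPM, with a log2 fold change of 0.54 (SE 0.13). For Rpl35a-ps6 and Rpl23a-ps3, edgeR's adjusted p was 0.9999.

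In the 4 members with 1 library far above the others the fitted difference rested on that library, and Rpl10-ps3, with 1 library far below, had a log2 fold change of 0.03 (SE 1.016). Rpl10-ps1 had a log2 fold change of -2.63 (SE 1.08), and it was 0.12 without Control 1. Rpl30-ps8 (ENSMUSG00000062582, in an intron of Gm47116 on the opposite strand) was at 5.03 CPM in Control 1 and at 0.705, 0.645 and 0.762 CPM in the other 3, with -1.98 (SE 0.90) in the fit and 0.0059 without Control 1. Rpl35a-ps2 had -1.48 in the fit and 0.17 without Control 2. Rpl36a-ps3 (ENSMUSG00000071141) was at 21.7 CPM in NT4 1 and at 1.86, 2.37 and 1.38 CPM in Control 1, Control 2 and NT4 2, with 2.44 (SE 1.16) in the fit and -0.58 without NT4 1. Rpl36al, from which it differs at 1 base, was at 236, 221, 209 and 234 CPM, lowest in NT4 1. Rpl15-ps3, whose whole sequence occurs in its parent and which was chosen after its values were seen, missed that 3-fold mark and was at 104 CPM in Control 2 and at 28.7, 38.6 and 26.1 CPM in Control 1, NT4 1 and NT4 2.

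**Figure D5:**
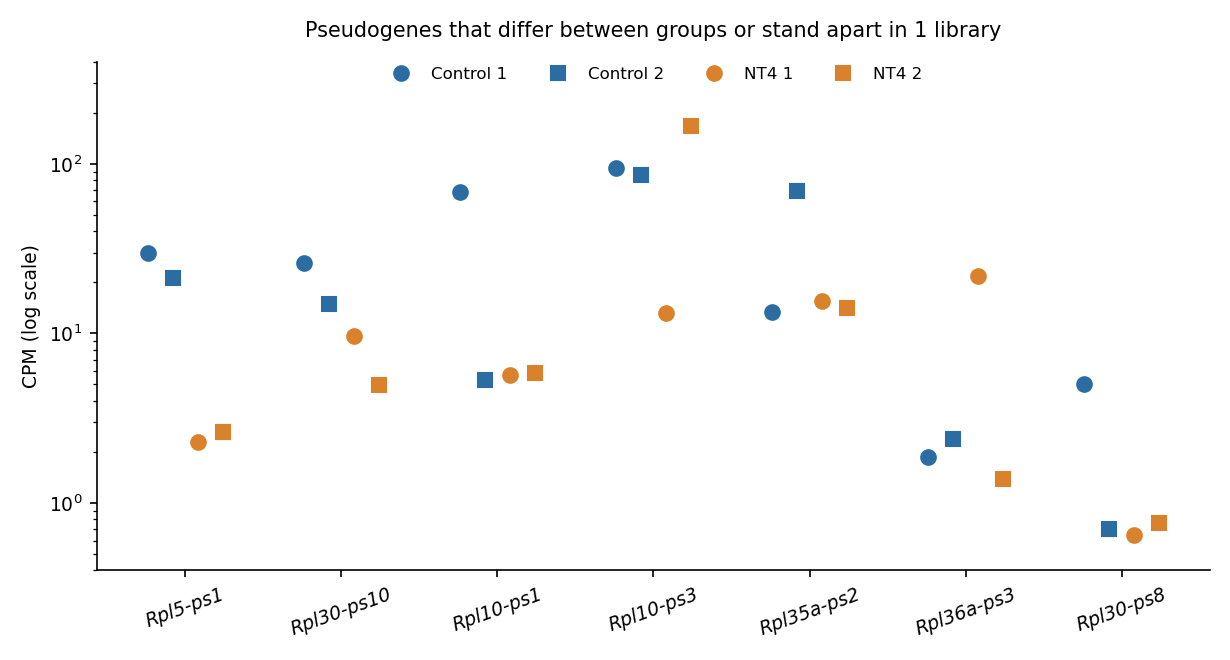
CPM (y axis, log scale) of 7 members in the 4 libraries; blue is Control, orange NT4, circles replicate 1 and squares replicate 2. The groups are separate for Rpl5-ps1 and Rpl30-ps10, and in the other 5 a single library lies apart, such as Control 1 for Rpl10-ps1 at 67.9 CPM.

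In a further fit, the counts of the pseudogenes were added to their parent. The parent's fold change moved by a median of 0.010 on the log2 scale over 55 parents. Of these, 14 had under 1% of the family's counts on pseudogenes. The move exceeded 0.1 in 2, Rpl21 and Rpl17. Rpl21 moved most, from -0.04 (SE 0.37) to 0.16 (SE 0.15), and Rpl17 went from 0.29 (SE 0.36) to 0.10 (SE 0.10). Both are among the 9 families with over 50% of counts on pseudogenes. Of the rest of these 9, Rpl34 went from 0.16 to 0.25, Rps2 from 0.09 to 0.17 and Rpl35a from 0.04 to 0.13. Rpl7a went from 0.14 to 0.11, Rps10 from 0.19 to 0.18, Rps26 from 0.16 to 0.18 and Rps12 from 0.13 to 0.10. The sign changed in 2 parents, Rpl21 and Rps18. The number of parents above 0 was 52 before and 52 after.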

How the data were processed

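By the study's methods, adaptor and low-quality reads were discarded with Cutadapt, paired reads of 150 bases were placed by HISAT2 on the Ensembl mouse genome (mm10 in the submitters' processing notes), and StringTie and ballgown gave transcript levels. The authors estimated counts from the mapped reads, and the deposited table holds each estimated count by gene as a whole number without normalization. The library kept strand, since its second cDNA strand was marked with dUTP and removed. How reads that fit several places were counted, whether the counting used strand and how whole counts were made are not given in the sources used here, and any of these could move counts between a pseudogene and its parent. Counts were read from the joint table, which matched the separate file of each library in 4 of 4.

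Of 55385 genes, 55144 matched a symbol by identifier. Positions and transcripts came from GENCODE M21 (GRCm38). Each member was aligned to 1 transcript of its parent with Biopython 1.88 (local, match 1, mismatch -2, gap opening -4, extension -1) and its 150-base windows were searched on both strands of all transcripts. Identity was the percent of aligned bases plus gap bases that matched, so gaps lowered it. NT4 was tested against Control in R 4.3.3 with edgeR 4.0.16 (TMM, default filter on low counts, quasi-likelihood test, two-sided, Benjamini-Hochberg over 19259 genes), and the SE is the fold change over the square root of F. The fit was tested on simulated data. Alternatives were other scalings and filters, counts divided by 4, DESeq2 1.42.0, edgeR's exact test, limma 3.58.1 voom, a replicate block, each library left out, and pseudogenes summed with the parent.

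The members named were those past an adjusted p of 0.05 or the study's criterion, the 6 with the highest CPM, the 4 with the largest share of the pair's counts and the 6 that differed most from the parent in fold change (the last 2 at a mean of at least 1 CPM), with their parents, 12 members in all. Rpl10-ps3, Rpl35a-ps3, Rpl35a-ps4, Rpl35a-ps6, Rpl5-ps2, Rpl23a-ps3 and Rpl15-ps3, for which levels are also given, lie outside these 12. The members and lists were chosen with earlier results of these data known. Floors reflect counting error alone, as PCR copies of 1 molecule could not be told apart. With all libraries kept, the p-values of the fits set a difference against the spread between 2 libraries of a group. Each fit estimates that spread partly from other genes.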

Additional observations from a re-analysis of the deposited data

How the results depend on the processing

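Of 332 values of the named members and parents under the alternatives, 308 kept their direction and their side of the threshold, 6 passed the adjusted threshold and 18 changed sign. The members called at an adjusted p, 0 in edgeR's quasi-likelihood test, numbered 1 under DESeq2's Wald test (of 65 genes called among 19259), 1 under the exact test of edgeR (of 59) and 1 when low counts were not filtered (of 10 among 27099), in each case Rpl5-ps1. They numbered 0 to 2 with a library left out, 1 without Control 1 (of 12 among 20414) and 2 without Control 2 (of 37 among 20203), where Rpl10-ps1 was the other. Members meeting the study's criterion, 2 in that test, numbered 6 with no filter and 6 in the exact test, and 3 to 9 with a library left out (6 without Control 1, 9 without Control 2, 3 without NT4 1, 4 without NT4 2), each time including the same 2. Over all genes the criterion was met by 208 in that test, 345 with no filter, 312 in the exact test, and 406, 512, 341 and 392 with those libraries left out in the same order. An unadjusted p under 0.05 was found in 9 members (of 535 genes) with no filter, 9 (of 444) in the exact test, and 10, 11, 11 and 9 (of 554, 652, 863 and 736) with those libraries left out. With a library left out the median log2 fold change ranged from -0.14 to 0.0118 for members, the highest without Control 1, from 0.0644 to 0.19 for parents, the lowest without NT4 2, and from -0.35 to -0.14 for the difference between them, and the group difference in the pseudogenes' share of counts from -0.95 to -0.13 percentage points.

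Signs changed with all libraries kept for Rpsa-ps10 (-0.0014 in limma voom), Rpl35a (-0.0248 in limma voom and -0.0283 with the replicate block) and Rpl21 (0.16 when summed with its pseudogenes). With a library left out, log2 fold changes ranged from -0.67 to 0.59 for Rpsa-ps10, -0.17 to 0.77 for Rps2-ps10, -0.0652 to 0.22 for Rpl7a-ps11, -2.23 to 0.17 for Rpl35a-ps2, -3.52 to 0.12 for Rpl10-ps1, -0.58 to 3.35 for Rpl36a-ps3, -2.79 to 0.0059 for Rpl30-ps8, -0.41 to 0.59 for Rps2, -0.66 to 0.38 for Rpl21 and -0.50 to 0.43 for Rpl35a. Rpl5-ps1 stayed between -3.56 and -3.11. Where 1 library of a group was left, it was assumed to vary like the other group. The cause of these moves was not tested.

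Both groups share the replicate numbers 1 and 2. What libraries with the same number shared beyond their group mean correlated at 0.17 (Pearson) and 0.22 (Spearman) over the 154 members and at 0.14 and 0.26 over all genes tested, but 2 pairs do not establish a pairing. With the replicate block 2 members met the criterion, where 180 of 19259 genes did, and 0 members and 0 genes passed the adjusted p, with a median over members of -0.12. An unadjusted p under 0.05, found in 4 members and 383 genes without the block, was found in 8 members and 580 genes with it.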
